A study of Arabidopsis thaliana with 24 samples.

Results

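The 10 genes described here encode calmodulin-like (CML) proteins of Arabidopsis thaliana that are known as touch-inducible or as close relatives of such genes. They were chosen by locus from the 32833 genes of the count table: TCH3 (CML12, AT2G41100), TCH2 (CML24, AT5G37770), CML11 (AT3G22930), CML23 (AT1G66400), CML37 (AT5G42380), CML38 (AT1G76650), CML39 (AT1G76640), CML40 (AT3G01830), CML41 (AT3G50770) and CML42 (AT4G20780). The loci were listed by name and not by a threshold on a measured value, with earlier results of these data known. Of the 10, 9 passed the filter on low counts, and CML40 did not.

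Polyadenylated RNA was sequenced from roots of wild-type Col-0 seedlings in 24 libraries, 8 groups of 3, to compare how the response to the cellulose synthesis inhibitor isoxaben changes with the KNO3 level and with how long seedlings were exposed. All groups share the genotype, the medium base with 0.8% agar, 3 days of stratification and harvest on day 6. The long-term groups grew throughout on 60 mM KNO3 with 2.5 nM isoxaben, 60 mM KNO3 with mock, 6 mM KNO3 with 2.5 nM isoxaben, or 6 mM KNO3 with mock. The shift groups grew on a polyester mesh and were moved on day 5 to fresh medium of the same KNO3 level, either 60 or 6 mM, with 2.5 nM isoxaben or with mock. Their mock libraries therefore also come from transferred seedlings. A change of KNO3 changes nitrate, potassium and ionic strength together. Nothing in the labels says whether replicates are separate plates or pools, so p-values measure the spread between these libraries.

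Library totals ranged from 18902538 to 20519913 counts. Levels are given as CPM, counts scaled to a common library size after TMM adjustment. A gene with no count in a library could still have had up to 3 counts by counting error, which is 0.143 to 0.167 CPM, and this limit covers no other error. All 12 root marker genes were detected in every library, but their levels were not constant. Their summed level was 1022 to 1791 CPM in long-term 60 mM isoxaben and 3182 to 3994 CPM in the matching mock libraries. NRT2.1, at 585.5 to 4153 CPM over all libraries, was the largest part of that sum. Of the 12, 4 were called higher and 4 lower in that effect (edgeR), beside 31.9% of all genes in either direction. The summed level of 20 photosynthesis genes, markers of shoot tissue, was 194 to 706 CPM in long-term 60 mM isoxaben and 570 to 810 CPM in the matching mock libraries. Of these 20 genes, 9 were called lower in that isoxaben effect and 0 in the other 3 (edgeR; 0 at an unadjusted p under 0.05 and 0 by DESeq2 in each of the 3). The part of these marker differences in the results at long-term 60 mM was not tested. In whole roots, fewer cells of a type and less RNA per cell cannot be told apart.

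Calmodulin and the CML proteins bind calcium ions through EF-hand motifs and change shape when they do so, which lets them pass a rise in cytosolic calcium on to partner proteins. The TCH genes were found in Arabidopsis as transcripts that rise when plants are touched, bent or sprayed. TCH3 has more EF hands than calmodulin itself, and its protein binds the kinase PINOID, which directs auxin transport.

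Several members lie beside other genes of the family, so their genomic context is given first, in RefSeq coordinates of assembly TAIR10.1. TCH3 occupies chr2:17137037-17139700 on the plus strand. AT2G41090, an EF-hand gene, ends 37 bases before it, and CAM2, a calmodulin gene, starts 482 bases after it on the same strand. TCH2 lies 4846 bases from CAM1, CML23 2719 bases from CAM4, and CML39 883 bases from CML38, each pair on 1 strand. The coding exons of TCH3 hold an exact internal repeat of 57 bases, at chr2:17138445-17138501 and chr2:17138812-17138868. It is the longest stretch of the coding sequence that occurs there again, and exon sequence outside the coding part was not searched. The repeat is shown because such repeats limit how surely reads can be placed:

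TCH3 repeat: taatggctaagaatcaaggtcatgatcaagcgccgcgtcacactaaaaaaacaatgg

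Of 2401 windows of 50 bases in TCH3 exons, 161 (6.71%) recurred in the genome. For 152 of them a further copy was within TCH3 itself, and 9 had a copy outside its exons. CML11 had 20 such windows (1.16%), all with a copy outside its exons, and the remaining 8 members had 0. The counts of TCH3 and CML11 are uncertain to that extent. TCH3 overlaps AT2G09220 and AT2G41105 on the opposite strand, and TCH2 overlaps AT5G37760. These antisense genes had at most 0, 2 and 3 counts in any library. CML40 overlaps AT3G01840, which had 56 to 178 counts. The strand setting of the counting is not given in the sources used here.

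TCH2 and CML23 are a closely related pair, and theirs were the only member windows of 250 bases before the annotated gene start that held CGCGTT (either strand), the core of the rapid stress response element to which CAMTA factors are known to bind. The windows are shown with CGCGTT or its reverse complement in capitals, read 5′ to 3′ along the gene, for TCH2 at chr5:14999620-14999869 and for CML23 at chr1:24771394-24771643, both minus strand:

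TCH2: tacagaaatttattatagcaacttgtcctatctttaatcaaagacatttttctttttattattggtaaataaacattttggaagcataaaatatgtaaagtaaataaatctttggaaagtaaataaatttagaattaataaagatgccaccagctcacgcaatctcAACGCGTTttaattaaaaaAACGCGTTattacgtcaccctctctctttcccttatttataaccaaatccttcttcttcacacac

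CML23: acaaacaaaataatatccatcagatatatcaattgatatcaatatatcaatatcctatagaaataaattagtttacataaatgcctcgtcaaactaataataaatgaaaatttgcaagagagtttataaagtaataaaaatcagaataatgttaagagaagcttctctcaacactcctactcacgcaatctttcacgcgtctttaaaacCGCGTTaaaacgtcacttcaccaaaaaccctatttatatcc

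CGCGTT was in 2.59% of 27443 such windows of all genes. In TCH2 it made 4 matches that overlap as 2 copies of AACGCGTT, a sequence that is its own reverse complement. At least 1 copy of AACGCGTT was in 0.251% of windows and at least 2 copies in 1 window, that of TCH2. This sequence was looked for after the TCH2 window had been seen. The TCH2 and CML23 windows also share the stretch ctcacgcaatct, which begins 97 bases before the TCH2 start and 71 bases before the CML23 start. CACGTG, the G-box, was in 0 of the 10 member windows and in 6.49% of all windows. TTGAC, the core of the W-box that WRKY factors are known to bind, was in 4 member windows (CML23, CML38, CML40 and CML42) and in 44.9% of all windows. The TCH3 window held none of the 3 motifs and lies within its neighbouring genes. These are letter matches and not mapped binding sites.

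TCH3 rose in isoxaben at both KNO3 levels and under both exposures. In long-term libraries at 60 mM KNO3, TCH3 was at 65.8, 81.0 and 62.1 CPM in isoxaben, against 3.74, 2.48 and 2.55 CPM in mock. In long-term libraries at 6 mM, it was at 52.7, 53.6 and 49.5 CPM in isoxaben, against 4.35, 4.496 and 6.10 CPM in mock. The groups did not overlap, and the lowest isoxaben library was far above the highest mock library at each KNO3 level. After the shift, TCH3 was at 114.6, 134.6 and 139.4 CPM in 60 mM isoxaben, against 3.89, 3.60 and 3.60 CPM in 60 mM mock. At 6 mM it was at 32.9, 24.9 and 34.4 CPM in shift isoxaben, against 2.85, 3.86 and 2.81 CPM in shift mock. Every isoxaben library of the series was thus above every mock library for this gene.

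The TCH3 log2 fold change of isoxaben over mock was 4.57 (SE 0.16, adjusted p 1.99e-15) in long-term libraries at 60 mM and 3.38 (SE 0.15, adjusted p 4.31e-12) in those at 6 mM. In shift libraries it was 5.13 (SE 0.16, adjusted p 1.13e-15) at 60 mM and 3.27 (SE 0.17, adjusted p 4.73e-11) at 6 mM, all from edgeR's quasi-likelihood test with Benjamini-Hochberg adjustment over 20546 genes. TCH3 had the smallest p of all genes tested in 3 of these effects, and the 18th smallest in long-term libraries at 60 mM. By size of log2 fold change it ranked 92nd in long-term 60 mM, 49th in long-term 6 mM, 20th in shift 60 mM and 13th in shift 6 mM libraries. The order of group means was shift 60 mM isoxaben at 129.5 CPM, then long-term 60 mM isoxaben at 69.6 CPM, long-term 6 mM isoxaben at 51.9 CPM and shift 6 mM isoxaben at 30.7 CPM. Ranges of neighbouring groups in this order did not overlap, and the 4 mock groups followed with means from 2.92 to 4.98 CPM. Among the mock groups, the long-term 6 mM range lay above that of shift 60 mM, and the remaining neighbours overlapped.

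**Figure D1:**
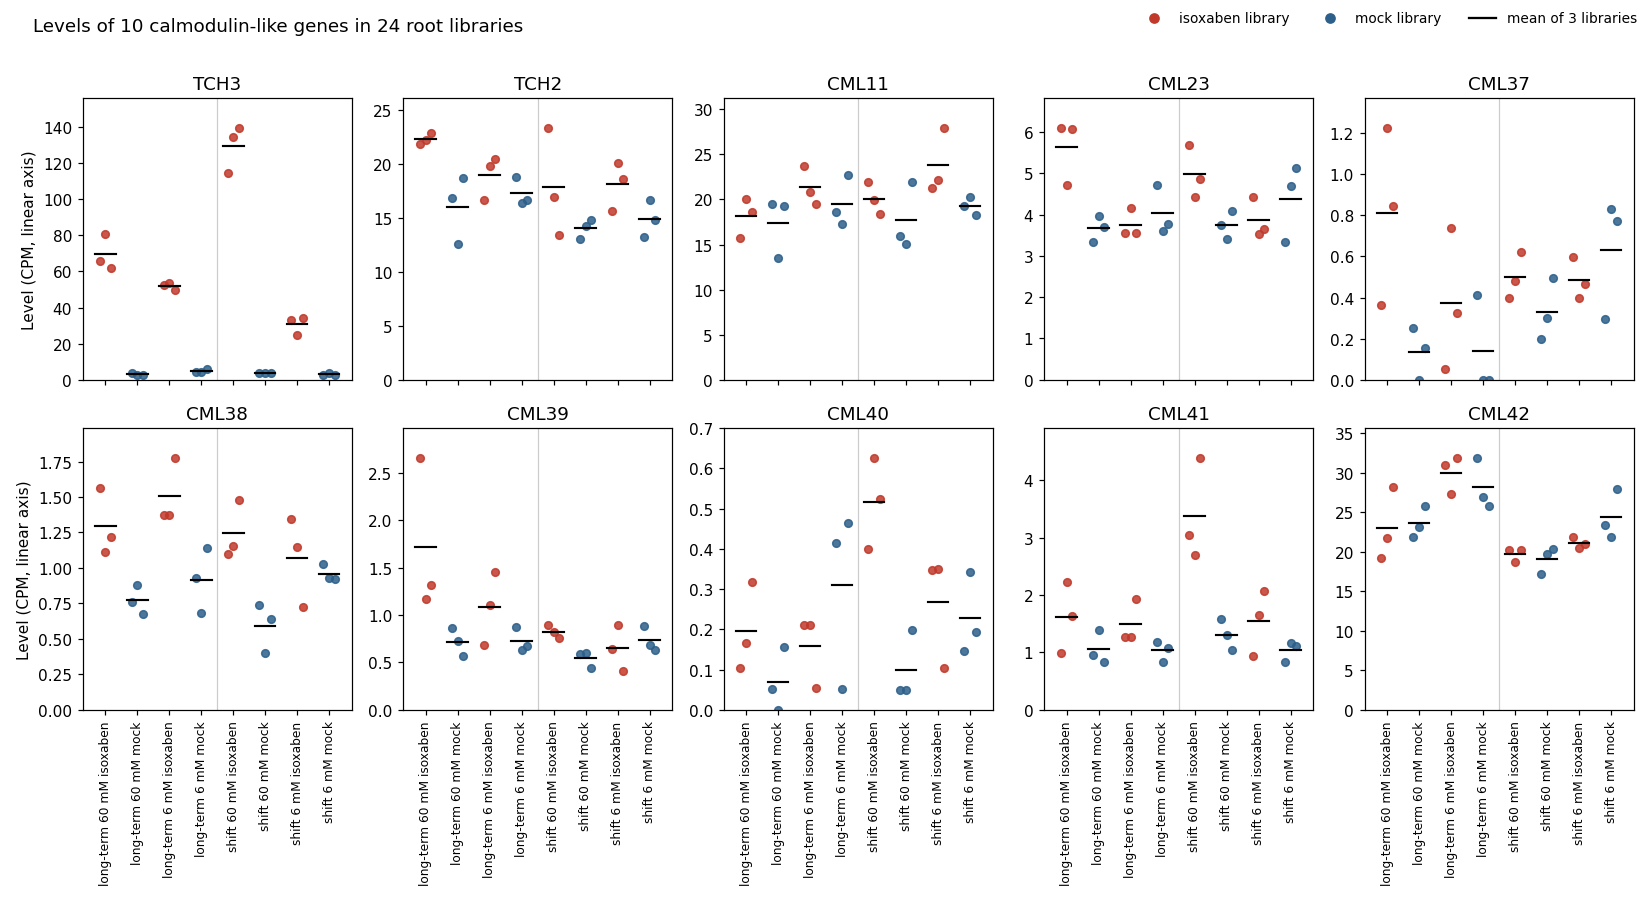
Level of each of the 10 genes (CPM, linear axis from 0, own scale per panel) in the 24 libraries. Red points are isoxaben libraries, blue points mock libraries and bars the mean of 3. In the TCH3 panel the isoxaben points lie between 24.9 and 139.4 CPM and the mock points between 2.48 and 6.10 CPM, whereas the TCH2, CML11 and CML42 panels show groups of similar level.

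Because TCH3 was low in mock, its rise changed the make-up of the counts of the 10 genes. TCH3 held 48.1 ± 4.4% (SD, n = 3) of their summed counts in long-term 60 mM isoxaben and 4.41 ± 0.99% in the matching mock libraries. It held 39.8 ± 1.6% in long-term 6 mM isoxaben and 6.47 ± 1.25% in mock. In shift libraries its share was 65.1 ± 4.6% in 60 mM isoxaben against 6.09 ± 0.75% in mock, and 30.1 ± 3.6% in 6 mM isoxaben against 4.55 ± 0.79% in mock. The other 9 genes together differed far less. Their sum was 69.1 ± 6.8 CPM in shift 60 mM isoxaben against 57.4 ± 5.8 CPM in mock, and 74.8 ± 6.4 CPM in long-term 60 mM isoxaben against 63.5 ± 6.9 CPM in mock. Levels per kilobase of exon used the union of exons over all annotated transcripts (2548 bases for TCH3, 2008 for TCH2, 981 for CML42). That union can be longer than the expressed transcript, so genes are compared only roughly. The TCH3 level was 12.1 to 50.8 CPM per kb over the isoxaben group means and 1.15 to 1.95 CPM per kb over the mock group means. On that scale the TCH2 level was 8.92 to 11.1 CPM per kb in isoxaben and 7.00 to 8.62 CPM per kb in mock, so TCH3 lay above TCH2 in isoxaben groups and below it in mock groups. CML42, the most abundant member per length in mock, was at 20.1 to 30.6 CPM per kb in isoxaben and 19.4 to 28.7 CPM per kb in mock.

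**Figure D2:**
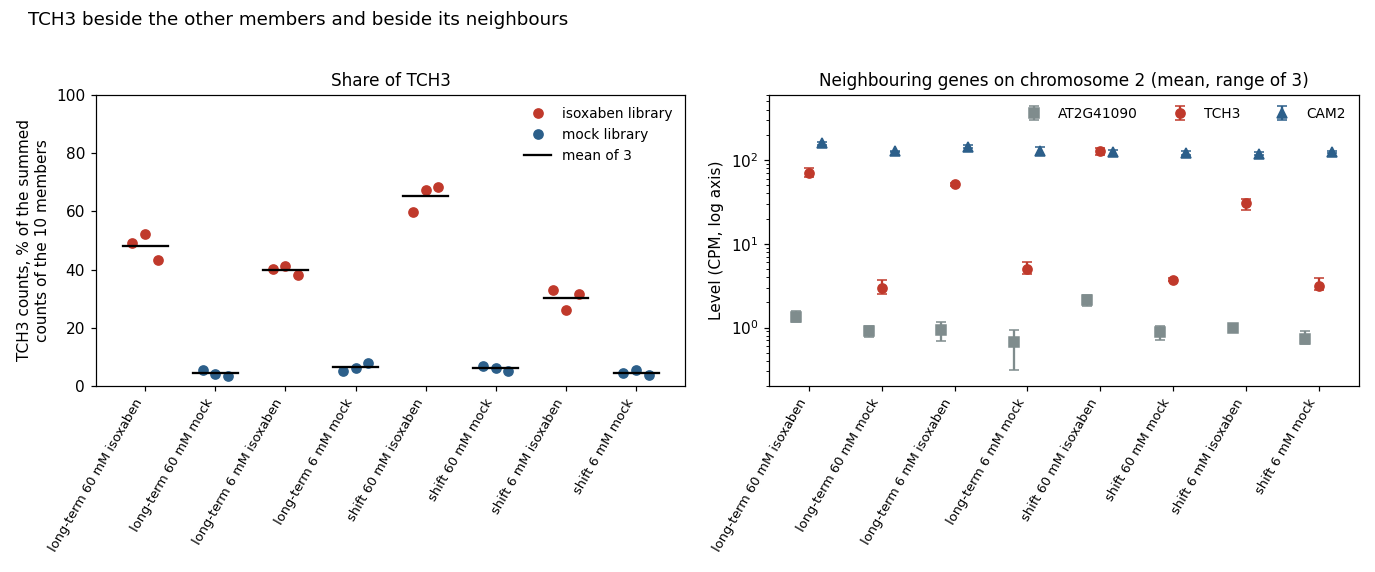
Left, TCH3 counts as a percentage of the summed counts of the 10 genes in each library (points) with group means (bars). Right, level (CPM, log axis; mean and range of 3) of TCH3 and of the genes on either side of it, AT2G41090 and CAM2, in the 8 groups. The TCH3 means are 30.7 CPM or more in the isoxaben groups and 4.98 CPM or less in the mock groups, while CAM2 stays between 112.7 and 166 CPM in every library. Levels are not scaled by length and compare groups within a gene.

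The genes on either side of TCH3 were read from the same table. AT2G41090 was at 2.102 ± 0.31 CPM in shift 60 mM isoxaben and 0.890 ± 0.172 CPM in the matching mock libraries (log2 fold change 1.23, SE 0.26, adjusted p 0.00121, edgeR). It was not called in the other 3 isoxaben effects, with log2 fold changes from 0.41 to 0.54. CAM2, one of the genes for calmodulin itself, is also known as TCH1 and so is a TCH gene too. CAM2 was at 159.2 ± 7.2 CPM in long-term 60 mM isoxaben and 126.9 ± 1.7 CPM in mock (log2 fold change 0.33, SE 0.07, adjusted p 0.000449, edgeR). It was not called in the other 3 effects, with log2 fold changes from -0.09 to 0.18. CAM1 beside TCH2 and CAM4 beside CML23 were called in none of the 4 isoxaben effects, with log2 fold changes from -0.01 to 0.10 and from -0.09 to -0.02.

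Among the members, 6 of 9 tested were called higher in long-term 60 mM isoxaben, where 16% of all genes tested were called higher and 31.9% were called in either direction. The 6 were TCH3, TCH2, CML23, CML37, CML38 and CML39. In long-term 6 mM isoxaben, 1 of 9 was called, TCH3, where 3.9% of all genes were called higher and 5.69% in either direction. In shift 60 mM isoxaben, 3 of 9 were called higher (TCH3, CML38 and CML41), where 7.35% of all genes were called higher and 12.9% in either direction. In shift 6 mM isoxaben, 1 of 9 was called, again TCH3, where 0.628% of all genes were called higher and 0.949% in either direction. No member was called lower in any isoxaben effect. Isoxaben and mock ranges did not overlap for 6 of 9 members in long-term 60 mM, beside 41.9% of all genes tested. The same held for 3 of 9 in long-term 6 mM, beside 23.9%. In shift libraries it was 5 of 9 at 60 mM beside 24.9%, and 2 of 9 at 6 mM beside 15.5%. Ranges that do not overlap are thus common in these data and do not by themselves show a change. The median log2 fold change of the 9 members was 0.62, 0.52, 0.59 and 0.16 in long-term 60 mM, long-term 6 mM, shift 60 mM and shift 6 mM, while the medians of all genes tested were between -0.01 and 0.01. Without TCH3 the member medians were 0.61, 0.33, 0.50 and 0.00075 in the same order. These medians leave out CML40 and rest on few genes.

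**Figure D3:**
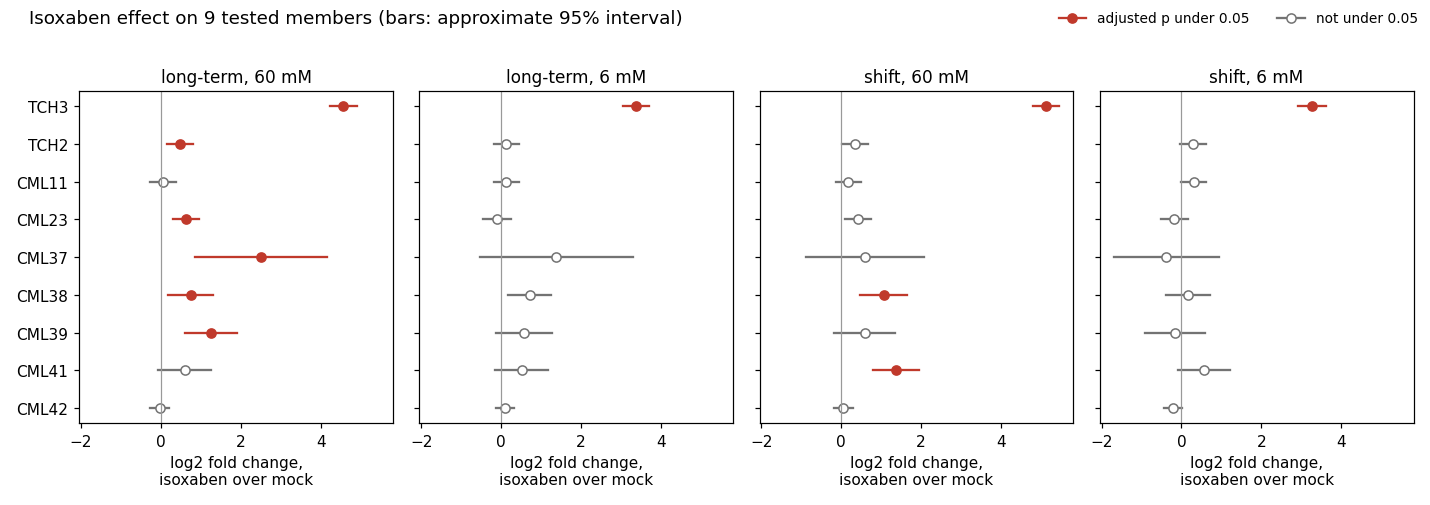
Log2 fold change of isoxaben over mock (points) with its approximate 95% interval (bars) for the 9 tested genes in the 4 isoxaben effects. Filled red points have an adjusted p under 0.05 (edgeR). TCH3 lies between 3.27 and 5.13 in all 4 panels, and the other filled points lie between 0.48 and 2.50.

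TCH2 and CML23, whose proteins are close paralogs linked in Arabidopsis to flowering time and to nitric oxide levels, had small rises at long-term 60 mM KNO3. TCH2 was at 21.9, 22.2 and 22.9 CPM in isoxaben, against 16.9, 12.6 and 18.7 CPM in mock. The isoxaben libraries were close to each other and above all 3 mock libraries, and the log2 fold change was 0.48 (SE 0.15, adjusted p 0.0203, edgeR). Without mock replicate 2 the adjusted p was 0.124, and without isoxaben replicate 3 it was 0.0589. CML23 was at 6.10, 4.73 and 6.08 CPM in isoxaben, against 3.33, 3.98 and 3.70 CPM in mock. The groups did not overlap, and the log2 fold change was 0.62 (SE 0.16, adjusted p 0.00331, edgeR). After the shift at 60 mM, CML23 was at 5.68, 4.43 and 4.87 CPM in isoxaben, against 3.74, 3.40 and 4.09 CPM in mock. These groups did not overlap either, as for 24.9% of all genes tested. The log2 fold change of 0.41 (SE 0.16) had an adjusted p of 0.0971 by edgeR. At 6 mM the CML23 log2 fold changes were -0.10 (95% interval -0.44 to 0.24) in long-term and -0.18 (-0.51 to 0.15) in shift libraries. TCH2 was not called in the other 3 effects, with log2 fold changes from 0.13 to 0.35.

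CML37, CML38 and CML39 encode small CMLs whose transcripts are known to rise in wounding, stress or low oxygen. CML38 protein is known from root hypoxia, CML37 from jasmonate defence and CML39 from seedling establishment. Their levels in these roots were low, so counting error is a large part of the spread. CML37 had 7, 22 and 16 counts in long-term 60 mM isoxaben, against 5, 0 and 3 in mock. In CPM that was 0.365, 1.22 and 0.846 against 0.253, 0 and 0.156. The groups did not overlap, and the log2 fold change was 2.50 (SE 0.80, adjusted p 0.0183, edgeR). CML37 was not called without mock replicate 2 (adjusted p 0.0794) or isoxaben replicate 2 (0.0838). It was at or under 3 counts in 5 of the 24 libraries and at 0 in 3 of them. Its log2 fold changes in the other 3 effects were 1.39, 0.59 and -0.38 in long-term 6 mM, shift 60 mM and shift 6 mM, with intervals that each included 0.

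CML38 was at 1.56, 1.11 and 1.22 CPM in long-term 60 mM isoxaben, against 0.758, 0.878 and 0.677 CPM in mock. Every isoxaben library lay above every mock library (log2 fold change 0.75, SE 0.28, adjusted p 0.0386, edgeR). Leaving out any 1 of 4 libraries ended this call: mock replicate 1 (adjusted p 0.091), mock replicate 3 (0.124), isoxaben replicate 1 (0.178) or isoxaben replicate 3 (0.0572). It was also not called by DESeq2 (0.0822). In shift 60 mM libraries CML38 was at 1.097, 1.16 and 1.48 CPM in isoxaben, against 0.739, 0.400 and 0.641 CPM in mock. The groups were again apart. The log2 fold change reached 1.06 (SE 0.29, adjusted p 0.0111 by edgeR), and that call was lost without mock replicate 2 (adjusted p 0.0828) or isoxaben replicate 3 (0.075). In long-term 6 mM libraries it was at 1.38, 1.37 and 1.77 CPM in isoxaben, against 0.931, 0.680 and 1.14 CPM in mock. Those groups did not overlap, as for 23.9% of all genes tested. The log2 fold change was 0.71 (SE 0.26), with an adjusted p of 0.126 by edgeR.

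CML39, the neighbour of CML38, was at 2.66, 1.17 and 1.321 CPM in long-term 60 mM isoxaben, against 0.859, 0.723 and 0.573 CPM in mock. Isoxaben replicate 1 stood above the other isoxaben libraries, and all 3 were above mock (log2 fold change 1.25, SE 0.32, adjusted p 0.00312, edgeR). Without isoxaben replicate 1 the log2 fold change was 0.79 and the adjusted p 0.077. CML39 was not called in the other 3 effects, where its log2 fold changes were 0.57, 0.59 and -0.16 in long-term 6 mM, shift 60 mM and shift 6 mM. CML38 and CML39 were thus both called higher at long-term 60 mM, by calls that the loss of single libraries could end. CML38 was called at shift 60 mM where CML39 was not. Whether the genes differed from each other was not tested.

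CML41, whose protein is known from plasmodesmata, the channels between plant cells, was called at shift 60 mM. It was at 3.04, 2.69 and 4.39 CPM in isoxaben, against 1.576, 1.3 and 1.04 CPM in mock. The groups did not overlap, and the log2 fold change was 1.37 (SE 0.28, adjusted p 0.000735, edgeR). The range of this isoxaben group lay above that of every other group. In the other 3 effects its log2 fold changes were 0.60, 0.52 and 0.57 in long-term 60 mM, long-term 6 mM and shift 6 mM, none called. CML40 had at most 13 counts in any library, 11 libraries at or under 3 counts and 1 at 0. Its counts in shift 60 mM libraries were 8, 13 and 11 in isoxaben, against 1, 1 and 4 in mock. The gene was below the filter, and in a fit without the filter its log2 fold change there was 2.31 (SE 0.69, adjusted p 0.0254, edgeR). Its antisense partner AT3G01840 had more counts than CML40 in every library, so this value is uncertain.

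CML11 and CML42 were called in none of the 13 comparisons by edgeR as fitted here, and CML42 was called for KNO3 in shift mock libraries by DESeq2 (adjusted p 0.0444), with library size alone (0.028) and with the replicate block (0.0329). It was also called there by edgeR without shift 6 mM mock replicate 2 (0.0362), long-term 6 mM mock replicate 1 (0.0446) or long-term 60 mM isoxaben replicate 1 (0.0251) or 3 (0.0196). CML42, which is known from trichome branching and from defence against insects, was at 19.1, 21.8 and 28.2 CPM in long-term 60 mM isoxaben, against 21.9, 23.1 and 25.8 CPM in mock. The isoxaben libraries spanned the mock range (log2 fold change -0.03, 95% interval -0.27 to 0.20). Over the 4 isoxaben effects its log2 fold changes were -0.21 to 0.09, and the widest bounds of their 95% intervals were -0.44 and 0.32. CML11 was at 15.7, 20.0 and 18.7 CPM in long-term 60 mM isoxaben, against 19.6, 13.5 and 19.3 CPM in mock, and these ranges overlapped. At shift 6 mM it was at 21.3, 22.1 and 27.9 CPM in isoxaben, against 19.2, 20.2 and 18.2 CPM in mock. There the ranges were apart, as for 15.5% of all genes tested. The CML11 log2 fold change was 0.31 (95% interval -0.004 to 0.62), with an adjusted p of 0.511 by edgeR. Its other log2 fold changes were 0.05 to 0.18.

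The dependence of the response on KNO3 was tested as the isoxaben effect at 60 mM minus that at 6 mM. For TCH3 the difference was 1.19 on the log2 scale (SE 0.24, adjusted p 0.00177, edgeR) in long-term libraries and 1.86 (SE 0.25, adjusted p 8.37e-05) in shift libraries. Both calls held without any 1 library. In long-term libraries TCH3 was also lower in 60 mM mock than in 6 mM mock, so the difference of effects holds both a higher isoxaben level and a lower mock level at 60 mM. The long-term isoxaben levels were 69.6 ± 10.0 CPM at 60 mM and 51.9 ± 2.1 CPM at 6 mM (SD, n = 3). The long-term mock levels were 2.92 ± 0.71 CPM at 60 mM and 4.98 ± 0.97 CPM at 6 mM. In shift libraries the mock levels were 3.70 ± 0.17 CPM at 60 mM and 3.17 ± 0.60 CPM at 6 mM (SD, n = 3). CML23 was the only other member called, in long-term libraries (0.72, SE 0.23, adjusted p 0.0404), and that call was lost without 1 library in 9 of 24 cases and with DESeq2 (adjusted p 0.053). In shift libraries its difference was 0.59 (SE 0.23, adjusted p 0.188). The 2 of 9 members called higher in long-term libraries stand beside 5.45% of all genes, and the 1 of 9 in shift libraries beside 2.14%.

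The dependence on exposure was tested as the isoxaben effect in long-term minus that in shift libraries. No member was called at 6 mM (edgeR; 0 at an unadjusted p under 0.05 and 0 by DESeq2), where 0.263% of all genes were. No member was called at 60 mM either (edgeR; 1 at an unadjusted p under 0.05, TCH3, and 0 by DESeq2), where 11.5% of all genes were. For TCH3 the difference was 0.11 (95% interval -0.40 to 0.61) at 6 mM and -0.56 (-1.08 to -0.04, adjusted p 0.177) at 60 mM. The change of its KNO3 interaction between exposures was -0.67 (-1.39 to 0.06, adjusted p 0.429). That test called no member (edgeR; 0 at an unadjusted p under 0.05 and 0 by DESeq2) and 2.2% of all genes. The TCH3 level itself was 69.6 ± 10.0 CPM in long-term 60 mM isoxaben and 129.5 ± 13.2 CPM in shift 60 mM isoxaben (SD, n = 3). In 60 mM mock it was 2.92 ± 0.71 CPM with long-term growth and 3.70 ± 0.17 CPM after the shift.

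The effect of KNO3 alone was read as 60 mM over 6 mM in mock libraries. In long-term mock libraries TCH3 was at 3.74, 2.48 and 2.55 CPM at 60 mM, against 4.35, 4.496 and 6.10 CPM at 6 mM. The ranges were apart, as they were for 27.1% of all genes tested. The log2 fold change was -0.76 (SE 0.21, adjusted p 0.0291 by edgeR), and TCH3 was the 1 member of 9 called lower, beside 3.94% of all genes. The call was lost without 6 mM mock replicate 3 (adjusted p 0.173), 60 mM mock replicate 2 (0.131) or 60 mM mock replicate 3 (0.13). In shift mock libraries 0 of 9 members were called (edgeR; 2 at an unadjusted p under 0.05, CML38 and CML42, and 1 by DESeq2, CML42), beside 8.2% of all genes. CML42 was at 17.2, 19.6 and 20.3 CPM in 60 mM shift mock, against 23.4, 21.9 and 27.9 CPM in 6 mM shift mock. The ranges were apart, as they were for 23.3% of all genes tested. The log2 fold change was -0.36 (SE 0.11, adjusted p 0.0541, edgeR). CML38 was also apart between these groups, at a log2 fold change of -0.69 (95% interval -1.30 to -0.07, adjusted p 0.18), and CML37 was at -0.93 (95% interval -2.34 to 0.48).

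Transfer to fresh medium, read as shift over long-term mock libraries, called 0 of 9 members at 60 mM (edgeR; 1 at an unadjusted p under 0.05, CML42, and 0 by DESeq2), beside 3.3% of all genes. At 6 mM it also called 0 of 9 (edgeR; 2 at an unadjusted p under 0.05, TCH3 and CML37, and 1 by DESeq2, TCH3), beside 0.642%. TCH3, the gene named for touch, was at 2.85, 3.86 and 2.81 CPM in 6 mM shift mock, against 4.35, 4.496 and 6.10 CPM in 6 mM long-term mock. The shift libraries were the lower ones (log2 fold change -0.65, 95% interval -1.08 to -0.22, adjusted p 0.243, edgeR). At 60 mM its log2 fold change was 0.34 (95% interval -0.12 to 0.79, adjusted p 0.509). The shift groups also grew on a polyester mesh, so mesh and transfer cannot be told apart in this comparison. The mock libraries of the shift groups were harvested on the day after transfer, and earlier times were not analysed here.

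Other genes of the calcium and touch pathways were read from lists chosen by name. Of 20 genes known to rise after touch or wounding, 16 were tested. In long-term 60 mM isoxaben 12 rose and 1 fell (CBF3, a cold-response factor, by 1.54 on the log2 scale, adjusted p 0.00693), and the median was 0.78. In long-term 6 mM isoxaben 5 rose and 0 fell, in shift 60 mM isoxaben 13 rose and 0 fell, and in shift 6 mM isoxaben 2 rose and 0 fell. The medians of these 3 effects were 0.23, 0.90 and 0.01. Of all genes tested, 16% were called higher in long-term 60 mM isoxaben and 3.9% in long-term 6 mM isoxaben. The shares were 7.35% in shift 60 mM and 0.628% in shift 6 mM isoxaben. In either direction they were 31.9%, 5.69%, 12.9% and 0.949% in the same order. The 2 at shift 6 mM were TCH4 and WRKY53, with 0 called there without isoxaben replicate 3 and 1 called without mock replicate 1, mock replicate 3 or isoxaben replicate 1.

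TCH4, a xyloglucan-modifying enzyme of the cell wall and the fourth TCH gene, was at 9.34 ± 0.60 CPM in long-term 60 mM isoxaben and 1.78 ± 0.51 CPM in mock (log2 fold change 2.38, SE 0.18, adjusted p 4.58e-11, edgeR). It was at 5.78 ± 0.92 CPM in long-term 6 mM isoxaben and 1.315 ± 0.07 CPM in mock (2.13, adjusted p 4.66e-08). In shift libraries it was at 11.3 ± 1.8 CPM in 60 mM isoxaben against 1.45 ± 0.20 CPM in mock (2.95, adjusted p 3.97e-12), and at 2.96 ± 0.52 CPM in 6 mM isoxaben against 1.43 ± 0.31 CPM in mock (1.04, adjusted p 0.00992). TCH4 and TCH3 were thus both called in all 4 effects, with smaller estimates for TCH4 in each. The KNO3 interaction of TCH4 was called in shift libraries (1.90, adjusted p 0.000206) and not in long-term libraries (0.26, adjusted p 0.665). These differed from each other in the test of the 3-way interaction (-1.65, SE 0.41, adjusted p 0.0285). Of the 16 tested genes of the touch list, 10 were called higher for the KNO3 interaction in shift libraries, beside 2.14% of all genes. In long-term libraries 2 of the 16 were called higher, beside 5.45% of all genes. The touch list had 0 genes called lower in either interaction.

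Among the 7 genes for calmodulin itself, CAM2 (TCH1) alone was called, in long-term 60 mM isoxaben. The other 3 effects called 0 of 7 (edgeR; 1, 1 and 0 at an unadjusted p under 0.05 in long-term 6 mM, shift 60 mM and shift 6 mM, and 0 by DESeq2 in each). Of 39 further loci of the CML family, 29 were tested. Of these, 10 rose and 4 fell in long-term 60 mM isoxaben, 5 rose and 0 fell in long-term 6 mM, 9 rose and 3 fell in shift 60 mM, and 1 rose and 0 fell in shift 6 mM. The medians of their log2 fold changes were 0.00, 0.07, 0.13 and 0.08. Shares of all genes tested called higher were 16%, 3.9%, 7.35% and 0.628% in that order, and 31.9%, 5.69%, 12.9% and 0.949% in either direction. AT5G39670, an EF-hand gene, was at 4.39 ± 1.08 CPM in long-term 60 mM isoxaben and 0.309 ± 0.093 CPM in mock (log2 fold change 3.80, adjusted p 1.68e-09, edgeR). In shift 60 mM libraries it was at 6.17 ± 2.01 CPM in isoxaben and 0.231 ± 0.186 CPM in mock (4.70, adjusted p 1.26e-10). CML8, a close relative of CML11, was the 1 locus called at shift 6 mM, at 9.96 ± 1.28 CPM in isoxaben and 6.85 ± 0.78 CPM in mock (0.54, adjusted p 0.036). No locus of this list was called there without mock replicate 2, mock replicate 3 or isoxaben replicate 1.

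**Figure D4:**
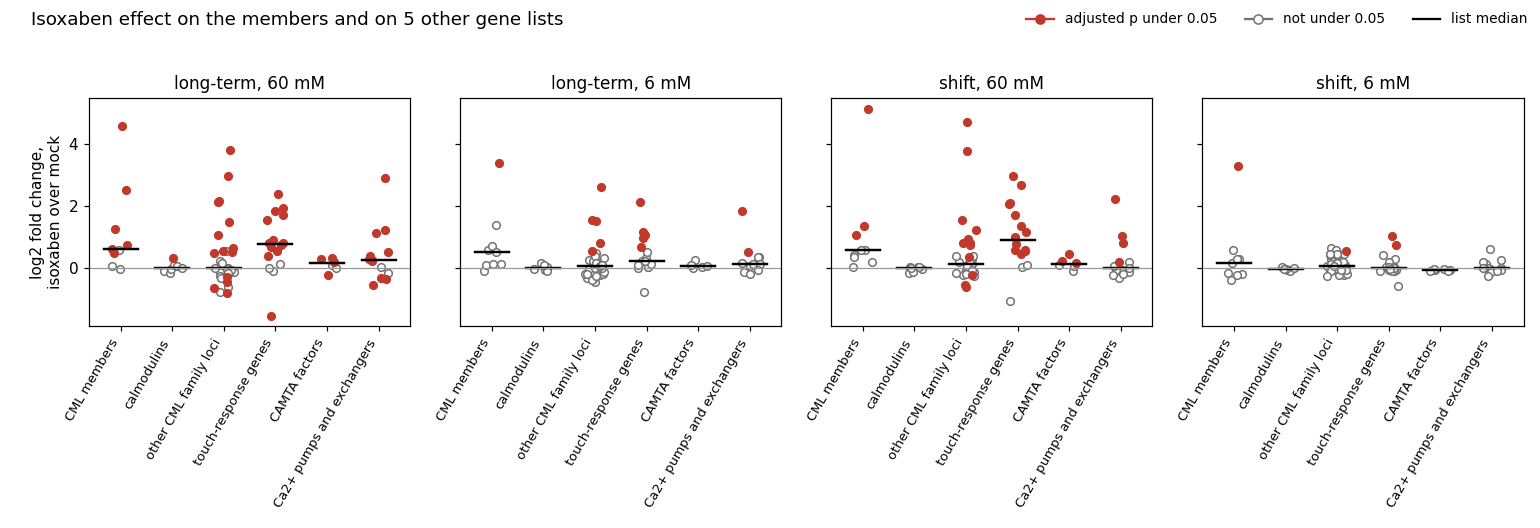
Log2 fold change of isoxaben over mock for the tested genes (points) of the members and of 5 other lists in the 4 isoxaben effects, with list medians (bars). Filled red points have an adjusted p under 0.05 (edgeR). The touch-response list has medians of 0.78 and 0.90 at 60 mM, against 0.23 and 0.01 at 6 mM, while the calmodulin list stays near 0 in all 4 panels.

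Partners and calcium transporters were read in the same way. PBP1, a calcium-binding protein that like TCH3 binds PINOID, was at 4.83 ± 1.63 CPM in long-term 60 mM isoxaben and 0.443 ± 0.235 CPM in mock (log2 fold change 3.42, adjusted p 3.11e-09, edgeR). PBP1 was also called in long-term 6 mM isoxaben (1.99, adjusted p 0.000364) and in shift 60 mM isoxaben (3.26, adjusted p 8.38e-09), but not in shift 6 mM isoxaben. PID, the gene for PINOID, was called in long-term 60 mM isoxaben alone, at 5.86 ± 0.81 CPM against 2.19 ± 0.90 CPM in mock (1.41, adjusted p 1.93e-06). At shift 6 mM the edgeR test called 0 of these 2 genes (2 at an unadjusted p under 0.05, 0 by DESeq2).

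The CAMTA factors bind calmodulin and regulate stress genes. Of the 6 CAMTA factors, 3 rose and 1 fell in long-term 60 mM isoxaben and 3 rose in shift 60 mM isoxaben, where 1 was called without mock replicate 1. At 6 mM edgeR called 0 in long-term isoxaben (1 at an unadjusted p under 0.05) and 0 in shift isoxaben (0), with 0 by DESeq2 in both. CAMTA3 was at 59.1 ± 2.1 CPM in shift 60 mM isoxaben and 43.2 ± 1.6 CPM in mock (log2 fold change 0.45, adjusted p 0.000181, edgeR). Of 13 tested calcium pumps and exchangers, 8 rose and 3 fell in long-term 60 mM isoxaben, 2 rose in long-term 6 mM, 4 rose in shift 60 mM, and 0 were called in shift 6 mM (2 at an unadjusted p under 0.05, 0 by DESeq2). Beside the counts of both lists, 16% of all genes tested were called higher and 31.9% in either direction in long-term 60 mM isoxaben. In shift 60 mM isoxaben these shares were 7.35% and 12.9%. They were 3.9% and 5.69% in long-term 6 mM, and 0.628% and 0.949% in shift 6 mM isoxaben. CAX3, a vacuolar calcium exchanger, was at 57.7 ± 7.8 CPM in long-term 60 mM isoxaben and 24.7 ± 2.2 CPM in mock (log2 fold change 1.22, adjusted p 9.26e-10). Its KNO3 interaction was called in long-term (0.72, adjusted p 0.00154) and in shift libraries (0.78, adjusted p 0.00178).

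The genes whose log2 CPM over the 24 libraries was most like that of TCH3 were CYP706A2 (Pearson r 0.979), a cytochrome P450 gene, MYB15 (0.970), a transcription factor gene, and DIR5 (0.970), a dirigent protein gene. These correlations describe libraries that fall into isoxaben and mock groups and share their depth. Mean levels of CYP706A2 were 13.4 CPM in long-term 60 mM isoxaben, 11.6 CPM in long-term 6 mM isoxaben, 23.0 CPM in shift 60 mM isoxaben and 3.98 CPM in shift 6 mM isoxaben, and at most 0.891 CPM in any mock group. Those of MYB15 were 9.50, 4.29, 14.2 and 2.29 CPM in the same isoxaben groups and at most 0.528 CPM in any mock group. The order of the 4 isoxaben means was that of TCH3 for each of these genes. They were picked for their correlation with TCH3 over these same libraries, so the shared order is not a separate result. Within the members, the correlation with TCH3 over 24 libraries was 0.703 for CML41, 0.699 for CML38 and 0.565 for TCH2, and -0.10 for CML42. For the other members the most alike gene was less close, with r from 0.765 for CML37 (with YLS9) to 0.886 for CML39 (with AT1G23750) and for CML42 (with AT5G40450). TCH2 was most like CYP707A1 (0.793), CML23 most like the cytokinin response regulator RR5 (0.833), CML41 most like PP2-A1 (0.831), CML38 most like AT3G54880 (0.875) and CML11 most like AT1G53070 (0.772).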

How the data were processed

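Roots of 8 groups of 3 libraries were profiled by RNA sequencing. The authors deposited raw counts per gene, and a second table of normalised signal in which each value is the count divided by 1 size factor per library (largest deviation 5.22e-13%). Only the counts were tested. Per the submitters' processing notes, STAR 2.7.9a, DESeq2 1.32.0 and the build TAIR10 were used. Their roles, the annotation, the strand setting and the treatment of reads with several matches are not given in the sources used here.

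Groups came from the sample titles. Counts were tested in R 4.3.3 with edgeR 4.0.16 (robust quasi-likelihood F test, filterByExpr, TMM factors 0.939 to 1.035) in 1 fit of 8 group means over 24 libraries, with 16 residual degrees of freedom. The filter left 20546 genes. Genes were called at a Benjamini-Hochberg adjusted p under 0.05 over all of them, a prior count of 0.125 was used, and SE was taken as the absolute log2 fold change over the square root of F, an approximation. CPM used TMM-adjusted library sizes. The 13 comparisons were 4 isoxaben effects, 2 KNO3 and 2 transfer effects in mock libraries, and 5 interactions. In all 24 replicate pairs, chi-square over its degrees of freedom was 2.66 to 21.8, above counting noise, so no library was merged. The script was checked on simulated data.

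Gene models and sequences are from RefSeq, assembly TAIR10.1, which holds all 10 members and 32548 of the loci. The count table carries no coordinates. The members and lists were chosen with earlier results of these data known, and no list was given a test of its own. Named besides the members were TCH4, the genome neighbours, the most alike genes, and from each list the called gene of largest change with a group mean of at least 5 CPM. CBF3, WRKY53, PID and the interactions of TCH4, CAX3 and the touch list were picked after their values were seen. Figures were drawn with matplotlib 3.10.9. Alternatives were 2 other scalings, DESeq2 1.42.0, 2 other filters, 2 other thresholds, a replicate block, a non-robust fit, a fit of the compared groups only, and leaving out each library.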

Additional observations from a re-analysis of the deposited data

Results flagged for a closer look

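The isoxaben effect on TCH3 differed between KNO3 levels, by the test of the difference itself. The effect at 60 mM minus that at 6 mM was 1.19 on the log2 scale in long-term libraries (adjusted p 0.00177, edgeR) and 1.86 in shift libraries (adjusted p 8.37e-05). The long-term difference holds both a higher isoxaben level and a lower mock level at 60 mM. Every isoxaben library was higher than every mock library at both KNO3 levels.

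CML23 also differed between KNO3 levels in long-term libraries, by 0.72 (adjusted p 0.0404, edgeR), with all 3 isoxaben libraries above all 3 mock libraries at 60 mM and overlapping ranges at 6 mM. The range of its adjusted p over the alternatives was 0.0201 to 0.132. Isoxaben and mock ranges were apart for 41.9% of all genes tested at long-term 60 mM.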

How the results depend on the processing

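No member log2 fold change called by edgeR changed its direction under any alternative run (fold changes that were not called were not followed), and another scaling moved the median of all genes by less than 0.1 (log2) in each comparison. TCH3 was called in all 4 isoxaben effects and both KNO3 interactions under every alternative, with log2 fold changes from 3.19 to 5.21 and 1.01 to 1.95. The member count for KNO3 in shift mock libraries was 1 in place of 0 (CML42) with library size alone, with DESeq2 and with the replicate block. That for transfer at 6 mM was 1 (TCH3) with DESeq2. That for the KNO3 interaction in long-term libraries was 1 in place of 2 with DESeq2, with no filter, when a change of at least 1 on the log2 scale was required and with an adjusted p under 0.01, CML23 being lost. For long-term 60 mM isoxaben it was 3 in place of 6 at either of these stricter thresholds, 5 with DESeq2, library size alone or no filter (CML38 lost, adjusted p 0.0822, 0.0596 and 0.0606), 5 with the CPM filter (CML37 not tested) and 4 in a fit of only the groups compared (CML37 not tested, CML38 lost), and for KNO3 in long-term mock libraries it was 0 in place of 1 at either. Leaving out 1 library gave 4 to 6 members for long-term 60 mM isoxaben, 2 to 4 for shift 60 mM isoxaben, 0 to 2 and 0 to 1 for KNO3 in long-term and shift mock libraries, and 1 to 2 for the long-term KNO3 interaction. CML40 was gained at shift 60 mM in 20 of these 24 fits, because the filter then asks for fewer libraries. Its highest counts were in shift 60 mM isoxaben replicates 2 and 3 (13 and 11), and it was not gained without either of them. It was also not gained without shift 60 mM mock replicate 1 or without mock replicate 2, which had 1 count each. The gene thus entered these fits through the group where it is high, so their number is no measure of robustness. A fit of only the groups compared was not applicable to the 3-way interaction.

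The replicate numbers did not pair the libraries: correlations of same-numbered deviations were -0.109 to 0.138, 1 of 24 was over 0.1, and 8 of 24 libraries correlated best with their own number. The replicate block changed no other member call. Over all alternatives, the genes called of all tested were 1857 to 6678 in long-term 60 mM isoxaben (6548 as reported), 319 to 1738 in long-term 6 mM (1170), 671 to 2853 in shift 60 mM (2659) and 64 to 247 in shift 6 mM (195). They were 270 to 1942 and 276 to 1898 for KNO3 in long-term and shift mock libraries (1391 and 1685), 137 to 889 and 32 to 181 for transfer at 60 and 6 mM (679 and 132), 835 to 2632 and 287 to 848 for the KNO3 interactions in long-term and shift libraries (2426 and 720), 793 to 2505 and 16 to 119 for the exposure interactions at 60 and 6 mM (2370 and 54), and 205 to 564 for the 3-way interaction (453). All 13 low ends came from the stricter thresholds. Single libraries moved some counts by over 1.5 times: long-term 6 mM isoxaben called 747 genes without mock replicate 3, and shift 6 mM isoxaben called 123, 110 and 105 without mock replicate 1, mock replicate 3 and isoxaben replicate 3. KNO3 in long-term mock libraries called 894 without 6 mM replicate 3, and 921 and 887 without 60 mM replicates 1 and 3, and in shift mock libraries 1031 without 6 mM replicate 3. Transfer at 60 mM called 280 to 449 without shift replicate 1 or 3 or long-term replicate 2 or 3, transfer at 6 mM 40 to 69 without any 1 mock library but shift replicate 3, and the 6 mM exposure interaction 18 to 35 without 1 of 6 libraries (long-term mock replicates 2 and 3, long-term isoxaben replicates 1 and 3, shift mock replicate 3 and shift isoxaben replicate 2). A log2 change of 1 or more in long-term 60 mM isoxaben was reached by 6 called genes of the touch list, 6 of the further CML loci, 3 calcium transporters and 0 CAMTA factors. Depth limits CML37 and CML40, and to a lesser degree CML38, CML39 and CML41, which had at most 92 counts in a library.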
